A study of Mus musculus with 8 samples.

Results

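Genes that mark the epicardium and the cardiac fibroblast lineage, 10 in all, were followed in whole hearts of newborn mice. Of the 10, 7 are used as markers of the epicardium (Wt1, Tbx18, Tcf21, Upk3b, Msln, Aldh1a2 and Krt19) and 3 as markers of fibroblasts (Pdgfra, Ddr2 and Thy1). Tcf21 marks both, since it is kept by epicardial cells that become fibroblasts. They were chosen by name, with earlier results of these data known. Each symbol was looked up in the locus tables of the RNA-seq without regard to case. Where a symbol was carried by several loci the one with the highest mean level was taken. All 10 matched, out of 39614 loci that carry a gene symbol and 80155 loci in all.

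The hearts came from male Hsd:ICR(CD-1) mice, an outbred stock, at postnatal day 1 (P1, n = 4) and postnatal day 7 (P7, n = 4). The labels name no treatment and no genetic change in either group. Each library was made from ribodepleted total RNA of 1 heart whose atrial appendages had been removed, and the labels give each heart its own animal. The study compared the stages because the mouse heart can regenerate at P1 and no longer does so at P7. Expression was deposited as FPKM, a fragment number scaled to the length of the locus and to the mapped fragments of the library, so levels can be set side by side between genes. The deposited tables hold no fragment counts, and the read totals that the study gives were not used here, so no counting error is attached to an FPKM.

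The epicardium is the mesothelial sheet that covers the heart. In the embryo, some of its cells lose their epithelial character, move into the muscle wall and become most of the fibroblasts and many of the mural cells of the coronary vessels. It also makes retinoic acid and other signals that act on the growing muscle, and several of its embryonic genes are switched on again after injury. Fibroblasts lay down the collagen network that stiffens the heart wall after birth.

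Of the 10 genes, 3 rose from P1 to P7. Aldh1a2, Thy1 and Tcf21 were 2.70, 2.67 and 1.98 times as high at P7 by the ratio of mean FPKM (n = 4 hearts per stage), and for each of them all P7 hearts lay above all P1 hearts. The other 7 did not pass the test, and for none of the 7 were the stages fully apart. A gene was called with a Benjamini-Hochberg adjusted p under 0.05 in limma on log2(FPKM + 1), adjusted over all 43172 loci tested, with P7 and P1 means at least 1.5 times apart. By this rule 8.14% of the 17960 tested annotated loci were called, 7.74% as higher and 0.401% as lower in P7, against 3 of 10 here, each of them higher. Over all 43172 tested loci, with those that carry no symbol, 3.82% were called. The 3 were also called after median-ratio scaling of the hearts, which called 7.76% of annotated loci as higher, and with the replicate number as a block, which called 5.4%. All 10 genes reached 1 FPKM in every heart, which many of the tested loci did not. Among loci that reached 1 FPKM in every heart the same 3 were called. There 2573 of 12730 annotated loci were called, 2424 of them as higher, a larger share than in the main fit. P7 lay wholly above P1 in 17.3% of the annotated loci. The value was higher at P7 in 8 of the 10 genes and in 67.6% of annotated loci. The median log2 fold change of the 10 genes was 0.48, beside 0.19 over the tested annotated loci. Log2 fold changes are on the log2(FPKM + 1) scale, which understates the change of weakly expressed genes.

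**Figure D1:**
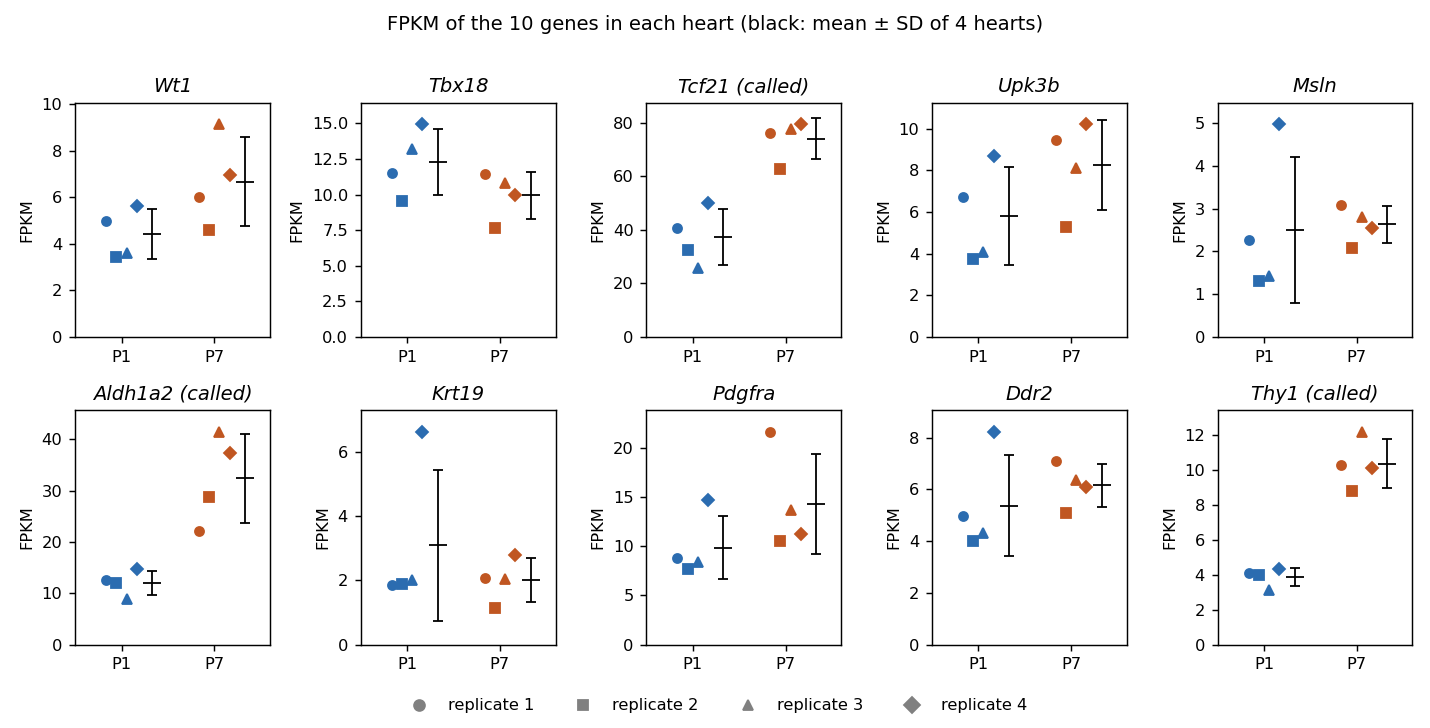
FPKM (y axis, from 0) of the 10 genes in each P1 heart (blue) and P7 heart (orange), with 1 symbol shape per replicate number and the mean ± SD of 4 hearts in black. Aldh1a2, Thy1 and Tcf21 are the 3 genes in which the stages do not overlap, and P1 replicate 4 is the highest P1 heart in all 10 panels.

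RefSeq start sites of GRCm38.p6 were at hand for 6 of the 10 genes. The 250 bases before the start are shown for 2 of them, read 5′ to 3′ on the strand of the gene: for Aldh1a2 because it rose most, and for Tbx18 because it is the epicardial transcription factor whose value was lower at P7. Capitals mark E-boxes (CANNTG, the same letters on both strands), the motif class bound by basic helix-loop-helix proteins such as TCF21.
Aldh1a2, chr9:71215539-71215788, plus strand: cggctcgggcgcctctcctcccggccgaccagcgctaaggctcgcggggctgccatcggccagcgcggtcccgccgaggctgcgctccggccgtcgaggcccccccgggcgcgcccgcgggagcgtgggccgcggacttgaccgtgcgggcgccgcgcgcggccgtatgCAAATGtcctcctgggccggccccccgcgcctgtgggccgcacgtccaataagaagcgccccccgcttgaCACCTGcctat
Tbx18, chr9:87731261-87731510, minus strand: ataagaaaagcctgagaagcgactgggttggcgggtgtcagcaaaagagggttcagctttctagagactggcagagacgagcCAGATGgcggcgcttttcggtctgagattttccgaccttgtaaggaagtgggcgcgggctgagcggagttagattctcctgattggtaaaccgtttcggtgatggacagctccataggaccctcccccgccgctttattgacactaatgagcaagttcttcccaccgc

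The windows differed in composition. That of Aldh1a2 held 77.6% G and C and that of Tbx18 54%, beside a median of 52.4% over all 32851 windows of the same length. Aldh1a2 had 2 E-boxes, beginning 81 and 11 bases before the start, and Tbx18 had 1, beginning 168 bases before it. The window of Tcf21 (chr10:22820144-22820393, minus strand, 52.4% G and C) had 0 and is not printed, because GENCODE M21 places the end of that gene at 22820174, inside the window. An E-box is in 66.2% of all windows. A CCAAT box (CCAAT on either strand) began 36 bases before the start of Aldh1a2 and 87 bases before that of Tbx18, and 33.8% of all windows hold one. None of these 3 windows held a T-box half-site (AGGTGTGA, in 1.12% of all windows), the WT1 and EGR motif GCGGGGGCG (2.57%), a retinoic acid receptor half-site (AGGTCA, 14%), a GC box (GGGCGG, 32.7%) or TATAAA (12.4%), each searched on both strands. These motifs do not overlap the capitals, and a match is a description of letters only.

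Aldh1a2 encodes retinaldehyde dehydrogenase 2, the enzyme that makes retinoic acid in the epicardium. It lies on chromosome 9 of GRCm38 (71215789 to 71296243), a protein-coding gene. Its FPKM was 12.5, 11.9, 8.93 and 14.6 in P1 replicates 1 to 4 and 22.1, 28.8, 41.5 and 37.4 in P7 replicates 1 to 4. The stages did not overlap, and P7 replicate 1 was the P7 heart nearest to the P1 hearts. From a mean of 12.01 ± 2.36 at P1 the level went to 32.4 ± 8.71 at P7 (SD, n = 4 hearts per stage). In limma the log2 fold change was 1.34 ± 0.23 (SE) with an adjusted p of 0.0130. Without P1 replicate 2 the adjusted p was 0.0515, in a fit that called 167 annotated loci against 1462 with all hearts.

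Tcf21 encodes a basic helix-loop-helix factor that is needed to form cardiac fibroblasts. It was the most abundant of the 10 genes at both stages. The locus used (chromosome 10, 22813842 to 22831049) spans the protein-coding Tcf21 on the minus strand and the antisense gene Gm10824 on the plus strand of GENCODE M21. Its FPKM was 40.9, 32.7, 25.9 and 50.2 in the P1 hearts and 76.3, 62.8, 77.7 and 79.6 in the P7 hearts, in the order of the replicate numbers. The stages did not overlap, and the P7 hearts lay closer together (SD 7.64 around 74.1) than the P1 hearts (SD 10.5 around 37.4, n = 4 each). In limma the log2 fold change was 1.003 ± 0.219 (SE) with an adjusted p of 0.0287. The call did not hold in most fits that left out 1 heart, in which fewer loci were called in general. It was lost in 6 of the 8 fits, those without P1 replicate 1, 2 or 3 or P7 replicate 1, 3 or 4. There the adjusted p ran up to 0.106 and the log2 fold change stayed at 0.85 or above. These 6 fits called 167 to 820 annotated loci, against 1462 with all hearts. The 2 fits that kept the call, without P1 replicate 4 or P7 replicate 2, called 2835 and 1012.

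Thy1 encodes a small surface glycoprotein, CD90, carried by many fibroblasts and also by T cells and neurons. It lies on chromosome 9 (44043384 to 44048579). Its FPKM was 4.11, 3.98, 3.13 and 4.30 in the P1 hearts and 10.3, 8.79, 12.2 and 10.1 in the P7 hearts. Both stages were tight and far apart. Mean levels were 3.88 ± 0.517 at P1 and 10.4 ± 1.40 at P7 (SD, n = 4 hearts per stage). In limma the log2 fold change was 1.22 ± 0.18 (SE) with an adjusted p of 0.00694. Thy1 was the only one of the 10 genes whose call held in each of the 8 fits that left out 1 heart, with limma adjusted p from 0.0044 to 0.0352.

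T cells and nerve were looked at beside this value through their own markers. Of 8 markers of T cells and thymus, Rag1 cannot be read, since its locus is shared with B230118H07Rik. At P1 the other 7 summed to between 1.31 and 4.23 FPKM, and at P7 to between 1.63 and 4.28. Cd3e, Cd3d and Cd8a reached at most 0.342 FPKM in any heart. Cd3g, another subunit of the CD3 complex, ran from 0.209 to 2.78 FPKM at P1 and from 0.460 to 1.42 at P7, and Lck, a kinase of T cells, from 0.220 to 0.548 and from 0.443 to 1.48. The part of T cells in the change of Thy1 was not tested. The 4 matched markers of neurons and glia summed to 3.32 to 4.56 FPKM at P1 and 2.31 to 3.31 at P7. Only 3 of the T cell markers, Rag1 among them, and 2 of the neuron and glia markers reached 1 FPKM in any heart and were tested. None of them was called, beside 8.14% of annotated loci. With so few genes tested, the absence of a call says little about either cell type.

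The remaining 5 epicardial genes did not pass the test. Wt1 encodes a zinc finger transcription factor that is a defining marker of the epicardium. It lies on chromosome 2 (105126529 to 105173653). Its FPKM was 4.98, 3.42, 3.59 and 5.65 in the P1 hearts and 6.03, 4.59, 9.14 and 6.94 in the P7 hearts. P7 replicate 2 lay below the 2 highest P1 hearts, so the stages overlapped. The log2 fold change was 0.49 (95% interval 0.01 to 0.98, limma adjusted p = 0.264), at an unadjusted p of 0.0474.

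Upk3b encodes a uroplakin of the mesothelial surface. Its FPKM (chromosome 5, 136038496 to 136045303) was 6.73, 3.74, 4.08 and 8.69 at P1 and 9.44, 5.29, 8.09 and 10.2 at P7. The stages overlapped across much of their range, and the log2 fold change was 0.47 (95% interval -0.10 to 1.05, limma adjusted p = 0.355). Msln encodes mesothelin, a surface protein of mesothelia. Its FPKM (chromosome 17, 25748614 to 25754366) was 2.27, 1.31, 1.42 and 4.97 at P1 and 3.09, 2.08, 2.79 and 2.55 at P7. The P7 hearts sat inside the range of the P1 hearts, with a log2 fold change of 0.16 (95% interval -0.44 to 0.76, limma adjusted p = 0.738). After a correction for GC content it was -0.14 and without P1 replicate 2 it was -0.00296, so no direction can be given for Msln.

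Krt19 encodes an epithelial keratin. Its FPKM (chromosome 11, 100140810 to 100148665) was 1.85, 1.89, 2.00 and 6.64 at P1 and 2.07, 1.14, 2.05 and 2.81 at P7. A single heart, P1 replicate 4, set the P1 mean. The log2 fold change was -0.33 with that heart (95% interval -1.005 to 0.35, limma adjusted p = 0.544) and 0.0207 without it.

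Tbx18 encodes a T-box factor of the epicardium and of the sinus horn. Its FPKM (chromosome 9, 87702688 to 87732090) was 11.5, 9.57, 13.2 and 14.9 at P1 and 11.4, 7.64, 10.8 and 9.95 at P7. It had the second highest mean of the 10 genes at P1 and the fifth at P7. The stages overlapped, and the log2 fold change was -0.28 (95% interval -0.71 to 0.15, limma adjusted p = 0.441). Median-ratio scaling of the hearts moved it to -0.50 with an adjusted p of 0.0577, and it was below 0 in every alternative that was run.

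Among the fibroblast genes, Pdgfra encodes the receptor for PDGF-A and PDGF-C that marks most cardiac fibroblasts. Its FPKM (chromosome 5, 75152291 to 75198204) was 8.76, 7.65, 8.37 and 14.7 at P1 and 21.7, 10.5, 13.7 and 11.2 at P7. The highest P1 heart, replicate 4, lay above 3 of the 4 P7 hearts, and the log2 fold change was 0.48 (95% interval -0.08 to 1.04, limma adjusted p = 0.337). Ddr2 encodes a receptor tyrosine kinase for fibrillar collagen. Its FPKM (chromosome 1, 169969409 to 170110804) was 4.96, 4.00, 4.30 and 8.22 at P1 and 7.11, 5.10, 6.35 and 6.10 at P7. The highest value of all 8 hearts was in a P1 heart, replicate 4, and the log2 fold change was 0.21 (95% interval -0.27 to 0.68, limma adjusted p = 0.580). The fibroblast markers thus split, with Thy1 called and Pdgfra and Ddr2 not. Whether the change of Thy1 differs from that of Pdgfra or Ddr2 was not tested.

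**Figure D2:**
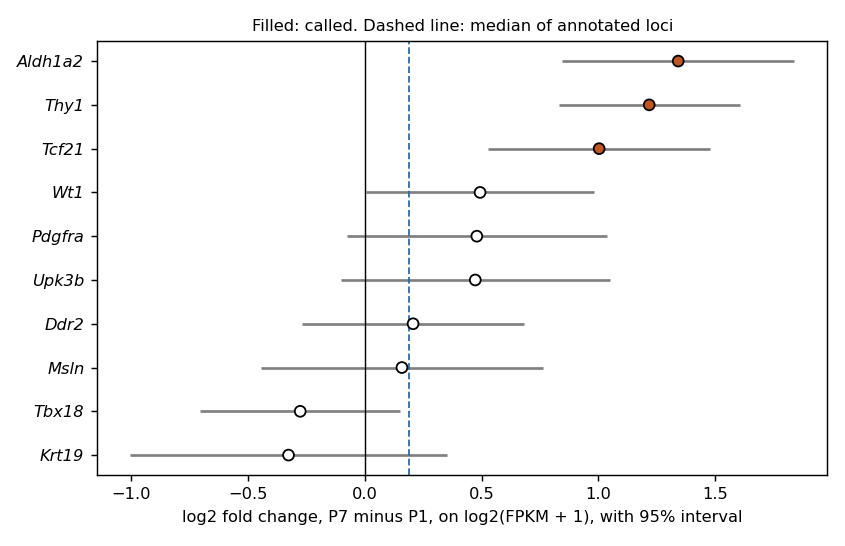
Log2 fold change (x axis, P7 minus P1 on log2(FPKM + 1)) of the 10 genes with its 95% interval from limma, filled where called, and the median of 17960 annotated loci as a dashed line. The intervals of Aldh1a2, Thy1 and Tcf21 lie above 0.5, and those of the other 7 genes include 0 or, for Wt1, begin at 0.01.

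The order of the levels changed with the stage. At P1 the order by mean FPKM was Tcf21, Tbx18, Aldh1a2, Pdgfra, Upk3b, Ddr2, Wt1, Thy1, Krt19 and Msln. Only Tcf21 was set apart there, and the ranges of all other neighbours in this order overlapped. At P7 the order was Tcf21, Aldh1a2, Pdgfra, Thy1, Tbx18, Upk3b, Wt1, Ddr2, Msln and Krt19. There the ranges of Tcf21 and Aldh1a2, of Aldh1a2 and Pdgfra, and of Ddr2 and Msln did not overlap, and those of the other neighbours did. Aldh1a2 thus moved from the level of Tbx18, which it exceeded in 2 of 4 P1 hearts, to a place of its own.

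Single hearts of a stage stood high or low for many of the 10 genes. P1 replicate 4 was the highest P1 heart for 10 of the 10 genes, and it was the highest P1 heart for 64.4% of the tested annotated loci. P7 replicate 2 was the lowest P7 heart for 9 of 10, and for 53.9% of the annotated loci. The scale of the libraries moves with these ranks. Other hearts were mixed, such as P7 replicate 1, which deviated from its stage mean by 0.62 for Pdgfra and by -0.50 for Aldh1a2 on the log2(FPKM + 1) scale. After median-ratio scaling, whose factors ran from 0.801 to 1.16 for the P1 hearts and from 0.942 to 1.27 for the P7 hearts, P1 replicate 4 was the highest for 6 of 10 (35.6% of annotated loci) and P7 replicate 2 the lowest for 4 of 10 (26.5%). The median log2 fold change of the tested annotated loci was 0.00 after this scaling. On that scale Aldh1a2, Thy1 and Tcf21 were called at 1.11, 1.01 and 0.76, and Wt1, Upk3b, Pdgfra and Ddr2 stood at 0.29, 0.27, 0.26 and 0.00.

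**Figure D3:**
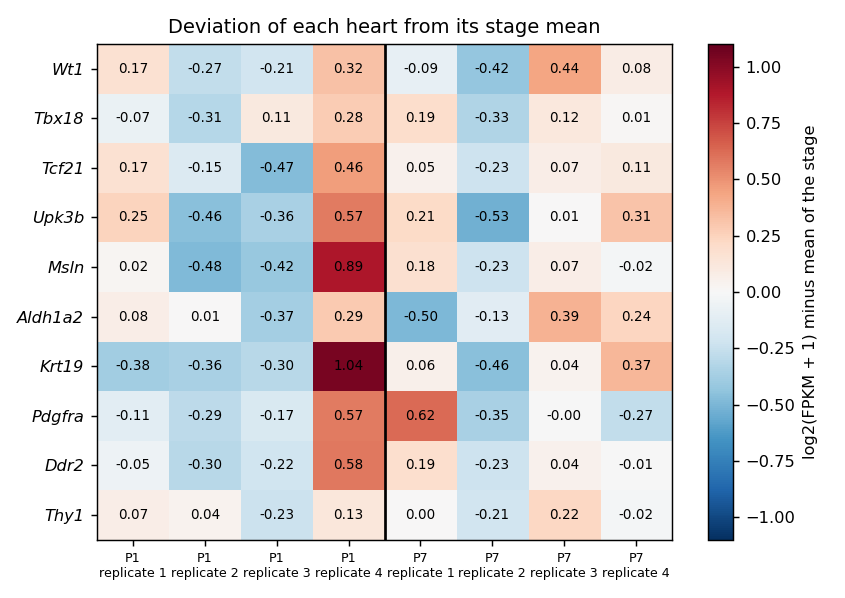
Deviation of each heart (columns) from the mean of its stage, in log2(FPKM + 1), for the 10 genes (rows), red above and blue below the stage mean. P1 replicate 4 is above its stage mean in all 10 rows, by 1.04 for Krt19 and 0.89 for Msln but by 0.13 for Thy1.

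The excess of P1 replicate 4 was uneven. It deviated from the stage mean by 1.04 for Krt19, 0.89 for Msln, 0.58 for Ddr2 and 0.57 for Upk3b and Pdgfra, and by 0.28 to 0.46 for Wt1, Tbx18, Tcf21 and Aldh1a2 on the log2(FPKM + 1) scale. Muc16, a mesothelial mucin named here after its values were seen, was 1.55 FPKM in this heart and 0.227 to 0.316 in the other P1 hearts. It passed the filter on low values only through this heart, so its value here adds no support. Marker sums of most cell types were also highest in this P1 heart. Those of mural cells came to 605 FPKM against 291 to 318 in the other P1 hearts, of cardiomyocytes to 15125 against 8223 to 10621, of endothelium to 121 against 63.6 to 82.8, of macrophages to 9.03 against 5.31 to 6.49, and of the other fibroblast genes to 2382 against 1244 to 1550. Most of the mural sum was Acta2, smooth muscle actin, at 455 FPKM in this heart and 214 to 235 in the other P1 hearts. Acta2 was lower in the P7 hearts, at 90.7 to 199 FPKM (log2 fold change -0.90, limma adjusted p = 0.126), without overlap. Their part in the result was not tested.

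Ratios of 2 genes within a heart depend little on the scale of the library where both genes lie well above the 1 added. The log2 ratio of Wt1 to Pdgfra, each with 1 added, was -0.99 ± 0.22 at P1 and -0.97 ± 0.53 at P7 (SD, n = 4 each), a difference of 0.01 (exact two-sided permutation test, p = 0.971). That of Ddr2 to Ddr1, the other collagen receptor of this family, differed by 0.07 (exact permutation test, p = 0.914). The ratio of Pdgfra to Pdgfrb, the receptor of mural cells and some fibroblasts, went from 0.32 ± 0.29 to -0.39 ± 0.24, a difference of -0.72, with all P7 hearts below the lowest P1 heart. The exact permutation p was 0.0286, the smallest that 4 against 4 hearts allow, and 0.0571 after adjustment over the 4 ratios. Aldh1a2 against Cyp26b1, an enzyme that breaks down retinoic acid, went from 3.26 ± 0.31 to 4.49 ± 0.40, with the same exact permutation p of 0.0286 and 0.0571 adjusted. Cyp26b1 was below 1 FPKM in each heart (0.232 to 0.535), so that with 1 added this ratio is set mainly by Aldh1a2. With nothing added the ratio of Aldh1a2 to Cyp26b1 overlapped, at 22.9 to 51.3 at P1 and 42.2 to 89.9 at P7. With 0.1 added in place of 1, the adjusted exact permutation p was 0.114 for this ratio and for Pdgfra to Pdgfrb.

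Other genes of the same cells were taken from lists. All lists were chosen with earlier results of these data known, so the counts called in them are descriptions only. Of 20 other fibroblast genes, all tested, 13 were called, each higher in P7, and 7 were not (65% against the 7.74% of annotated loci called higher). Their median log2 fold change was 1.06. Pi16, a marker of adventitial fibroblasts, went from 1.83 ± 0.66 to 10.5 ± 2.6 FPKM (SD, n = 4 each; log2 fold change 2.03, limma adjusted p = 0.00244). Mfap4, a microfibril protein, went from 27.2 ± 3.9 to 100.5 ± 10.03, Cd248, a surface protein of stromal cells, from 4.11 ± 1.01 to 16.1 ± 3.0, and Islr, a secreted stromal protein, from 4.16 ± 1.41 to 14.4 ± 1.9 (SD, n = 4 each; limma adjusted p = 0.00209, 0.00313 and 0.00560). Col3a1, a fibrillar collagen, rose from 236 ± 119 to 645 ± 77.7 (limma adjusted p = 0.0177). Periostin (Postn), a matricellular protein of young and activated fibroblasts, stood at 344 ± 130 and 293 ± 59 (log2 fold change -0.19, limma adjusted p = 0.671). The count of 13 fell to 6 when P1 replicate 2 or either of P7 replicates 1 and 3 was left out, to 8 without P1 replicate 3, and was 17 without P1 replicate 4.

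The other epicardial and mesothelial genes gave another picture. Of 16, 15 were tested, and 1, Krt18, was called (6.67%, near the 8.14% of annotated loci). The median log2 fold change was 0.02, with 8 values above and 7 below 0. Several of these genes were weak. Lrrn4, Krt7, Krt8 and Muc16 averaged 0.461 to 0.940 FPKM over all hearts, and Fap, the weakest of the other fibroblast genes, averaged 4.94. Since log2(FPKM + 1) understates the change of weak genes, the medians of these lists are not on an equal footing. Krt18, a keratin of simple epithelia, went from 0.761 ± 0.424 to 2.76 ± 0.55 FPKM (SD, n = 4 each; log2 fold change 1.11, limma adjusted p = 0.0194). The call was lost without P1 replicate 2 or 3 or P7 replicate 1 or 3. Those fits called 167 to 425 annotated loci, against 1462 with all hearts. Ezr, the membrane linker ezrin, had 25.9 ± 7.9 and 36.5 ± 6.0, and Podxl, podocalyxin, which endothelial cells also make, 12.5 ± 5.0 and 18.2 ± 2.1 (SD, n = 4 each; limma adjusted p = 0.249 and 0.231). Both were called without P1 replicate 4, in a fit that called 2835 annotated loci. Gpm6a, a membrane glycoprotein named here after its values were seen, had its 4 lowest values in the P7 hearts, with a log2 fold change of -0.49 (limma adjusted p = 0.208), and was called at -0.70 after median-ratio scaling.

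Aldh1a2 was set beside other genes of retinoic acid. Of 18 genes of this pathway, 13 were tested, of which 5 were called, all higher in P7 (38.5%, beside 7.74% of annotated loci), and 8 were not, while the 5 that were not tested stayed under 1 FPKM in every heart. Their median log2 fold change was 0.64. Dhrs3, which turns retinaldehyde back to retinol, went from 9.31 ± 1.38 to 32.7 ± 8.0 FPKM (SD, n = 4 each; log2 fold change 1.69, limma adjusted p = 0.00356). The receptors Rxrg, Rarg and Rxra rose by 1.996, 1.32 and 1.09 on the log2 scale (limma adjusted p = 0.00265, 0.00551 and 0.0287). Rxrg, with 0.226 to 0.747 FPKM at P1 and 3.86 to 7.54 at P7, passed the filter on low values only through P7, the stage where it is high, so its call adds no support to the count. Rarb and Rara, the other retinoic acid receptors, are named here after their values were seen. Their log2 fold changes were 0.08 and 0.53 (limma adjusted p = 0.836 and 0.125). For Rara all P7 hearts lay above all P1 hearts, and for Rarb the stages overlapped. Rxrb, another receptor, stood at 16.98 ± 1.74 and 27.2 ± 4.81 (limma adjusted p = 0.0787). With correction for GC content Dhrs3, Rarg and Rxrg were still called, and Rxra was not, in a fit that called 407 annotated loci. The count of 5 fell to 3 without P1 replicate 2 or 3 or P7 replicate 1 or 3. Those fits called 167 to 425 annotated loci, against 1462 with all hearts.

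**Figure D4:**
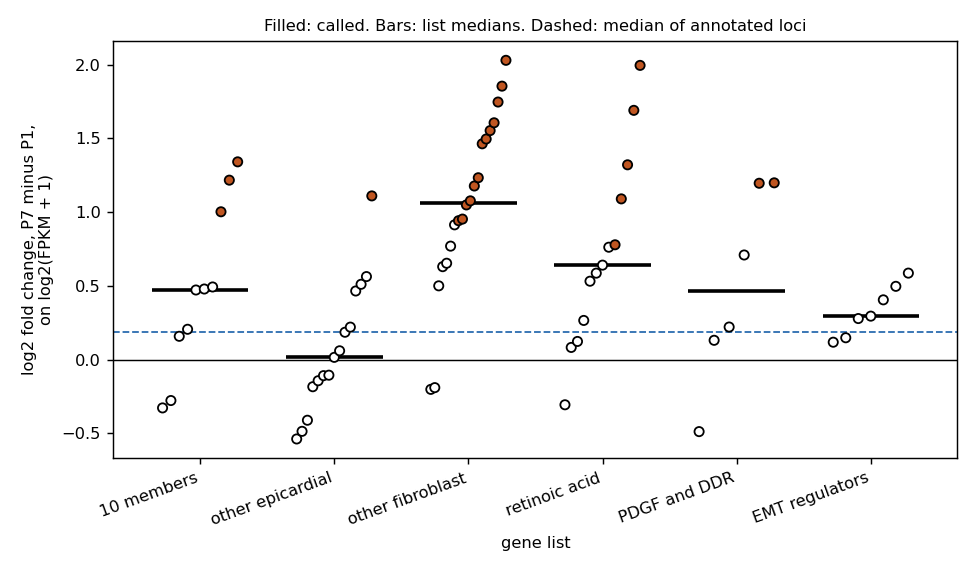
Log2 fold change (y axis, P7 minus P1 on log2(FPKM + 1)) of each tested gene of the 10 genes and of 5 lists, filled where called, with list medians as bars and the median of annotated loci as a dashed line. The other fibroblast genes have a median of 1.06 with 13 of 20 called, and the other epicardial genes a median of 0.02 with 1 of 15 called. Several of the other epicardial genes are weak, and this scale understates their change.

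Partners of Pdgfra and Ddr2 were looked at as ligands and receptors. Of 6, 2 were called, both higher in P7, beside 7.74% of annotated loci called higher. They were Pdgfb, a ligand made by endothelium, from 4.34 ± 1.44 to 10.97 ± 1.32 FPKM, and its receptor Pdgfrb, from 8.10 ± 4.41 to 18.6 ± 3.6 (SD, n = 4 each; limma adjusted p = 0.0157 and 0.0379). Pdgfa, a ligand of Pdgfra, had 24.8 ± 4.5 and 41.3 ± 7.3 (log2 fold change 0.71, limma adjusted p = 0.0801) and was higher in all P7 hearts than in any P1 heart. Pdgfc, another ligand of Pdgfra and named here after its values were seen, went the other way, with 2.27 ± 0.59 and 1.34 ± 0.46 FPKM (log2 fold change -0.49, limma adjusted p = 0.241). Its P7 hearts all lay below its P1 hearts. Ddr1 had 23.9 ± 2.7 and 26.3 ± 2.8 (limma adjusted p = 0.656). With correction for GC content both calls were lost, in a fit that called 407 annotated loci against 1462 without it. They were also lost when P1 replicate 2 was left out, or replicate 1 or 3 of P7. Pdgfrb was also lost without P1 replicate 1 or 3 or P7 replicate 4. The fits that left out these hearts called 167 to 820 annotated loci.

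Of 8 regulators and cadherins of the epithelial-mesenchymal transition, by which epicardial cells leave the surface, 7 were tested. By limma 0 were called, beside 8.14% of annotated loci, and 2 had an unadjusted p under 0.05. The most abundant were Cdh2, N-cadherin, which cardiomyocytes also carry (112 ± 29 and 134 ± 21 FPKM), and Zeb1 (67.5 ± 6.0 and 74.2 ± 14.1, SD, n = 4 each), with limma adjusted p of 0.480 and 0.717. Cdh1, E-cadherin, was not tested, since no heart reached 1 FPKM.

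In whole hearts, fewer cells of a type and less RNA per cell cannot be told apart. Markers of other cells gave 2 of 5 called for endothelium, 1 of 6 for mural cells, 0 of 6 for cardiomyocytes, 0 of 5 for macrophages and 1 of 5 for adipocytes, all higher in P7. Over the tested annotated loci 7.74% were called higher. The summed FPKM of these markers at P1 and P7 ran from 63.6 to 121 and 107 to 163 for endothelium, 291 to 605 and 241 to 366 for mural cells, 8223 to 15125 and 8897 to 15545 for cardiomyocytes, 5.31 to 9.03 and 7.97 to 11.5 for macrophages, and 1142 to 1351 and 1223 to 2026 for adipocytes. Nearly all of the adipocyte sum was Fabp4, with 1126 to 1343 FPKM at P1 and 1195 to 2002 at P7. Acta2 made up most of the mural sum at P1 and was lower at P7. Myh11, Rgs5, Cspg4 and Kcnj8 had higher means at P7, and Tagln a similar one. The part of these cells in the changes of the 10 genes was not tested. For lung epithelium, a neighbour of the heart, the 6 markers summed to 0.585 to 3.73 FPKM at P1 and 0.622 to 1.93 at P7. Ucp1, a brown fat gene, was 3.08 and 10.3 FPKM in P7 replicates 2 and 4 and at most 0.147 in the other hearts. Without these 2 hearts Thy1 was still called (limma adjusted p = 0.0278), whereas Aldh1a2 and Tcf21 had adjusted p of 0.0623 and 0.0878 at log2 fold changes of 1.29 and 1.06. That fit called 337 annotated loci, against 1462 with all hearts. Hearts held 14456 to 15790 annotated loci with at least 1 FPKM, and unannotated loci took 33.1% to 72.7% of the FPKM of a heart, the most in P7 replicate 4.

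The genes most like the 10 were looked for by the root-mean-square difference of centred log2(FPKM + 1) values over the 8 hearts. Nearest to the mean profile of Wt1, Tbx18, Upk3b, Msln, Aldh1a2 and Krt19 were Endod1, Surf6, Snrnp25, Rnf185 and Gm11604 (0.07 to 0.08 log2 units). Nearest to that of Tcf21, Pdgfra, Ddr2 and Thy1 were Sash1, Ctns, Anapc16, AW555464 and Zfp282 (0.05 to 0.07). None of these 10 neighbours was called, and each had its highest P1 value in P1 replicate 4. They were picked for their match to mean profiles in which P1 replicate 4 is the highest P1 heart. Both traits thus come in part from the choice and add no support. No marker of the lists came among them.

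**Figure D5:**
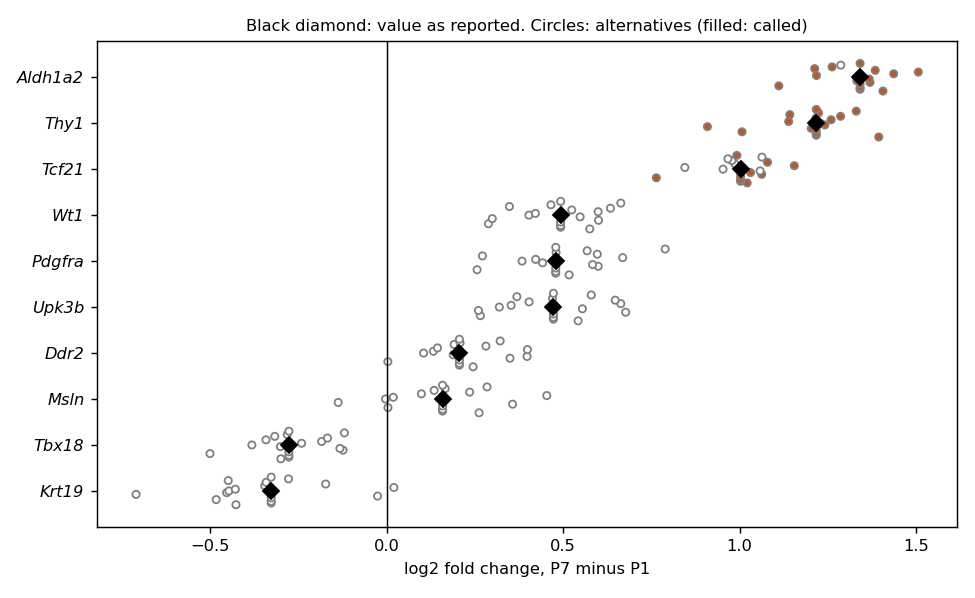
Log2 fold change (x axis, P7 minus P1) of the 10 genes as reported (black diamonds) and under each alternative (circles, filled where called). Thy1 is called under each alternative, Aldh1a2 and Tcf21 lose the call in some, and the circles of Msln and Krt19 lie on both sides of 0.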

How the data were processed

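RNA-seq libraries of 4 P1 and 4 P7 mouse hearts were analysed. The deposited values are FPKM: the authors' provider mapped paired reads to GRCm38 (Ensembl release 70), totalled them per locus and scaled them, with the aligner not given in the sources used here. An FPKM holds no count, so precision comes from the spread between hearts only. Locus starts were raised by 1 to count from 1. Loci reaching 1 FPKM in any heart were compared with limma 3.58.1 (R 4.3.3) on log2(FPKM + 1), lmFit and eBayes with trend, all 8 hearts, no covariates. The thresholds are those of the study's methods, which name no test. Ratios and single values were compared with exact permutation tests (scipy 1.17.1, Python 3.11.15, pandas 2.3.3, numpy 2.4.6). The genes named are the 10 members, in each list the called genes (at most 4, by size of change) with the 2 most abundant, the genes of the ratios, and the 5 nearest profiles. The 10 genes and all lists were chosen with earlier results of these data known. The fit was tested on simulated data. Alternatives were a pseudocount of 0.1, 2 other filters, median-ratio scaling, a replicate block, sample quality weights, GC correction (lowess, span 0.3, GENCODE M21 transcripts, known for 85.9% of tested annotated loci and all 10 members), summed loci and each heart left out. Leaving out P7 replicates 2 and 4 together was chosen after seeing the data. Count tests were not run. The values of 1 listed gene are not reported here.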

Additional observations from a re-analysis of the deposited data

Results flagged for a closer look

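Single hearts far from the other 3 of their stage were looked for by the share of the range taken up by the gap to the nearest heart. In the 10 genes and the listed genes, 7 of 142 groups of 4 hearts passed Dixon's 95% value, against 7.1 that chance gives at 1 in 20. Of the 7, 4 concern P1 replicate 4. They are Krt19 (gap share 0.969, FPKM 6.64 against 1.85 to 2.00), Muc16 (0.932, 1.55 against 0.227 to 0.316), Itga4, an integrin of epicardial cells and leukocytes (0.849, 4.27 against 3.23 to 3.39), and Pdgfra (0.841, 14.7 against 7.65 to 8.76). Muc16 also stood apart in P7 replicate 1 (0.890, 0.628 against 0.212 to 0.257). It was among the genes looked at only because P1 replicate 4 reached 1 FPKM, so its flag in that heart adds no support. Lox, a collagen cross-linking enzyme, was low in P7 replicate 2 (0.847, 14.8 against 21.8 to 23.1), and Twist1 was high in P7 replicate 3 (0.839, 5.17 against 3.48 to 3.75).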

How the results depend on the processing

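The number of the 10 genes called was 3 in each alternative that kept all hearts and a filter on low values. It was 1 with no filter on low values, in which all 80155 loci share the adjustment, and 1 without P7 replicates 2 and 4. Of the fits that left out 1 heart, those without P1 replicate 4 or P7 replicate 2 gave 3. The fit without P1 replicate 2 gave 1, and the others gave 2. With no filter Aldh1a2 kept a log2 fold change of 1.34 (limma adjusted p = 0.0653) and Tcf21 of 1.00 (adjusted p = 0.0921). Without P7 replicates 2 and 4 they had 1.29 and 1.06. Leaving out 1 heart gave 1.21 to 1.51 for Aldh1a2, 0.85 to 1.16 for Tcf21, 1.14 to 1.29 for Thy1, -0.00296 to 0.45 for Msln and -0.45 to 0.0207 for Krt19. Msln turned to -0.14 with GC correction. The ratio of Wt1 to Pdgfra ranged from -0.13 to 0.25 and that of Ddr2 to Ddr1 from -0.0374 to 0.32. Annotated loci called numbered 1462, and 231 with no filter, 2573 with 1 FPKM in every heart, 2951 with sample quality weights, 407 with GC correction, 337 without P7 replicates 2 and 4, and 167 to 2835 leaving out 1 heart. With median-ratio scaling 1388 were higher and 621 lower, against 1390 and 72. For the other epicardial genes the count of 1 became 0 with no filter, 1 FPKM in every heart, GC correction or without P7 replicates 2 and 4, 2 with median-ratio scaling, and 0 to 3 leaving out 1 heart. For the other fibroblast genes it became 7 with no filter, 8 without P7 replicates 2 and 4 and 6 to 17 leaving out 1 heart. For retinoic acid it was 3 with GC correction and 3 to 6 leaving out 1 heart. For the PDGF and DDR partners it was 0 with no filter, GC correction or without P7 replicates 2 and 4, and 0 to 2 leaving out 1 heart. The cause was not tested. Hearts of the same replicate number did not deviate together (correlations -0.019, 0.122, -0.102 and -0.027). With the number as a replicate block 3 of the 10 genes and 1052 annotated loci were called. The tables hold no counts, so the precision of genes near 1 FPKM is given here by the spread of 4 hearts only.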

Other observations

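Other loci overlap those of the 10 genes. A second locus named Tcf21 has the same coordinates as the one used (chromosome 10, 22813842 to 22831049) and FPKM of 0.643 to 1.53 at P1 and 1.104 to 1.63 at P7. Its strand is not stated in the tables, and GENCODE M21 holds the antisense gene Gm10824 there. Adding it to Tcf21 left the log2 fold change at 0.99 (limma adjusted p = 0.0300). The locus D030062O11RIK shares the span of Tbx18 (chromosome 9, 87702688 to 87732090), with 1.20 to 2.74 FPKM at P1 and 1.63 to 2.75 at P7. AC139673.1 shares the span of Ddr2 (chromosome 1, 169969409 to 170110804), with 0.171 to 0.495 FPKM at P1 and 0 to 0.231 at P7, and GENCODE M21 holds the antisense gene 3110045C21Rik there. Whether reads were assigned by strand was not stated, so reads of these pairs cannot be told apart with certainty.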
